A study of Mus musculus with 16 samples.

Results

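The genes described here are the Sox, Fox and Klf transcription factors of the mouse, measured on Clariom S microarrays in sorted cells of the olfactory mucosa. Members were taken by symbol: Sox followed by digits, Fox followed by a letter and a digit, or Klf followed by digits. Foxi1 was left out by that rule, as was 1 symbol that carries a suffix. The rule gave 74 genes of the 19505 tested, each with 1 probe set, of which 19 were Sox, 38 were Fox and 17 were Klf genes. Foxj1 and Foxm1 were not analysed here.

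Sox proteins bind DNA through a high mobility group box that sits in the minor groove and bends the helix. Fox proteins bind through a winged helix called the forkhead domain, and several of them open compacted chromatin or carry growth factor signals to genes. Klf proteins bind GC-rich boxes and CACC boxes through a zinc finger array that they share with the Sp factors. Many members of these families hold or direct a cell type, so their RNA is often read as a sign of lineage: in the olfactory epithelium Sox2 is known in basal progenitors and in sustentacular cells, the supporting cells of the tissue, Sox9 in Bowman's glands and their ducts, and Sox11 in young neurons.

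The mice were C57BL/6 of both sexes, 7 to 12 weeks of age, and all of them carried S100a5-tauGFP, a fluorescent reporter of S100a5, a calcium-binding protein of olfactory sensory neurons whose expression follows their activity. Each of the 24 mice was kept singly for 40 hours in a chamber flushed with clean air at 3.1 L/min. Starting at hour 26, bourgeonal, a floral aldehyde, or filtered air as the vehicle was delivered every 20 minutes in pulses of 10 seconds. Dissociated mucosa of 3 mice at a time was sorted by fluorescence, which gave 4 odor pools and 4 vehicle pools with 2 libraries each: odor titled GFP-, odor titled GFP+, vehicle titled GFP- and vehicle titled GFP+, with 4 libraries in each group. That the libraries of a pool come from the same mice follows from the number of mice and is not stated. The labels do not give the zygosity of the reporter, and each library pools animals, so no value belongs to a single mouse.

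The gate in a library's title is the opposite of the gate in its cell type field, for all 16. In 8 of 8 pools the titled GFP- library held the higher S100a5 value, by 1.02 ± 0.25 on the log2 scale (SD, n = 8 pools, limma adjusted p = 2.16e-05), which goes against the titles. Every ratio below is titled GFP- over titled GFP+ on the log2 scale, and every direction is that of the library as titled. Omp, which marks mature neurons of the epithelium, had values of 18.72 to 18.97 in titled GFP- libraries and 18.63 to 18.92 in titled GFP+ libraries, far above background in both gates. The gates also differed in scale. The median over all genes was 5.94 to 6.00 in titled GFP- libraries and 6.28 to 6.36 in titled GFP+ libraries. The median over vomeronasal receptor genes went the other way, with 3.42 to 3.57 in titled GFP- and 3.19 to 3.36 in titled GFP+ libraries. As a guide to background, the 95th percentile of 319 vomeronasal receptor genes was taken in each library, and a mean was called above background when it exceeded the highest such percentile of its gate, 4.97 for titled GFP- and 4.64 for titled GFP+ libraries. Over all genes the median gate ratio was 0.105 with the values as deposited.

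Of the 74 members, 16 were lower and 5 were higher in titled GFP- libraries over all pools (limma, adjusted p under 0.05 over 19505 genes). That is 21.6% of the members lower and 6.76% higher, against 13.2% lower and 14.4% higher over all genes. The largest changes were falls. At least 2-fold lower were 6 members (8.11%, against 6.69% of all genes), and none was at least 2-fold higher (2.16% of all genes). Those 6 were Sox9, Sox11, Sox2, Klf5, Klf4 and Klf6. In the same 6 (8.11% of the members) every titled GFP- library lay below every titled GFP+ library, which held for 6.9% of all genes. Both shares are near those of all genes, in which 2-fold falls also outnumbered 2-fold rises (1304 against 422). The median ratio over the members was 0.027. In level, 36 members were below background in both gates, 7 were above it in 1 gate and 31 in both. This split depended on the scale. When every library was centred at its median, 48 members were higher and 8 lower, against 73.5% of all genes higher and 9.19% lower, and the median ratio over all genes was 0.458. When every library was centred at the median of its vomeronasal genes, none was higher and 22 were lower, against 3.92% of all genes higher and 22.3% lower, and the median ratio over all genes was -0.135. Sox9, Sox11, Sox2, Sox6, Klf5, Klf4, Klf6 and Klf3 were lower under every scaling that was tried. In bulk libraries such as these, fewer cells of a type and less RNA per cell cannot be told apart.

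**Figure D1:**
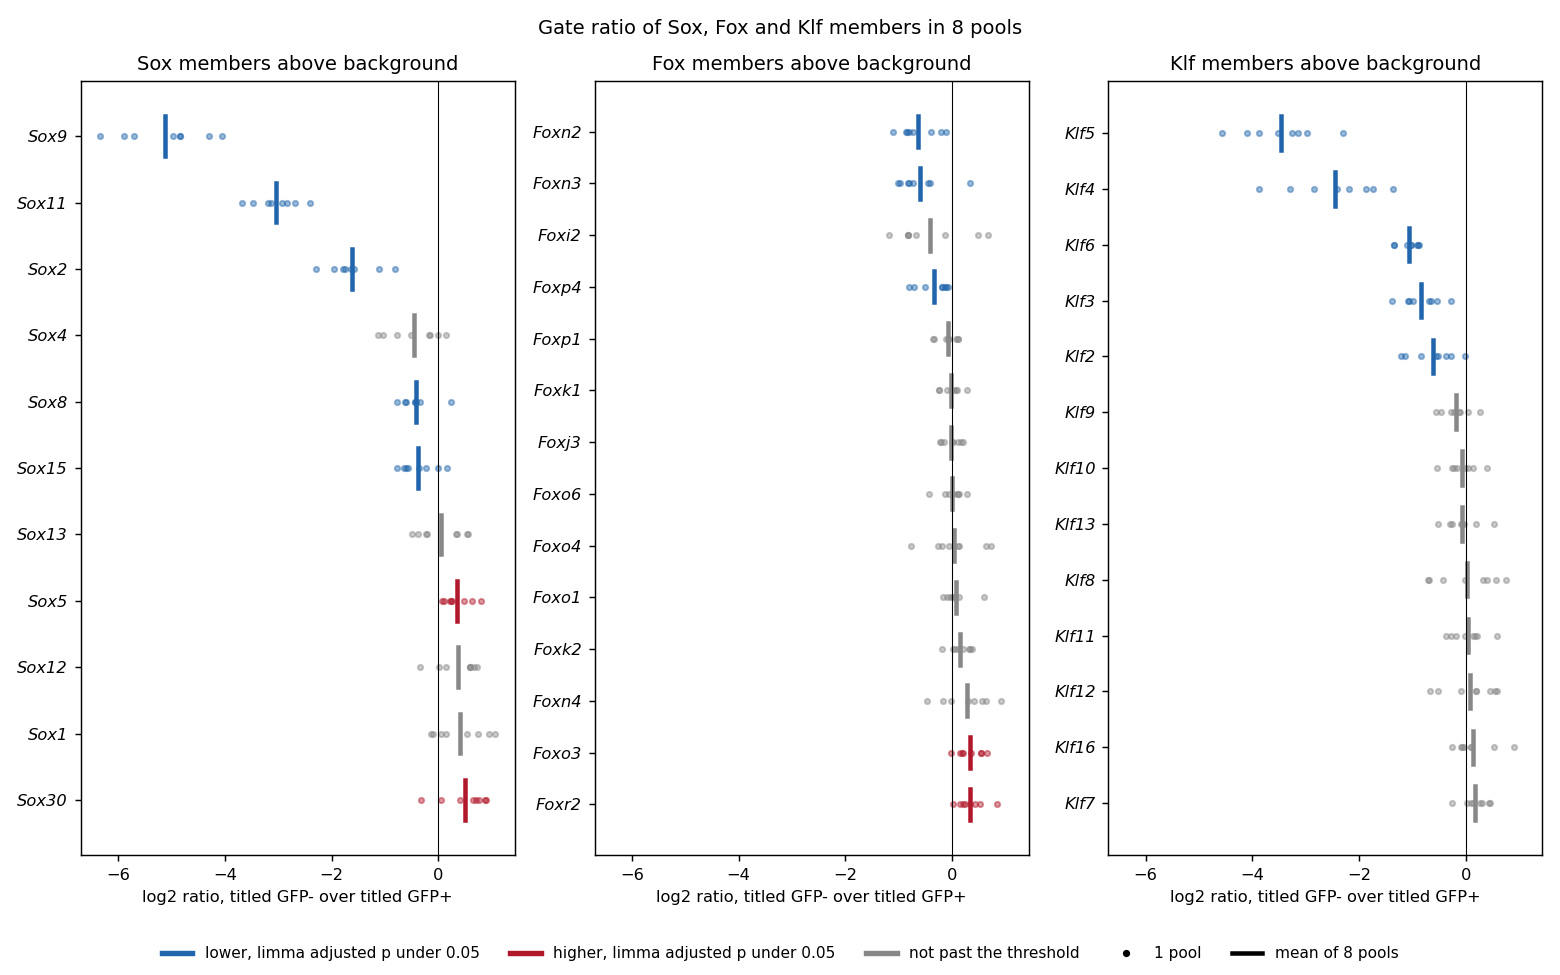
Log2 gate ratio, titled GFP- over titled GFP+, of the 38 members above background in at least 1 gate, by family. Each point is 1 of 8 pools and the bar is their mean; colour marks the limma call. Sox9 (-5.12), Klf5 (-3.47) and Sox11 (-3.04) lie far to the left, and no member reaches a mean of 1 to the right; the rises in red did not pass with libraries centred on their vomeronasal genes.

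Sox9, an activator of the SoxE subgroup needed in cartilage, testis and many glands, fell furthest. In odor pools it had 5.31, 5.29, 4.69 and 5.02 in titled GFP- libraries, against 10.15, 10.27, 10.40 and 10.91 in titled GFP+ libraries. In vehicle pools it had 5.38, 5.55, 4.38 and 5.69 in titled GFP- libraries, against 9.44, 10.39, 10.71 and 9.99 in titled GFP+ libraries. All titled GFP- values were thus close to the background guide, with 6 of 8 libraries above their own percentile, and all titled GFP+ values were far above it. The ratio was -5.12 ± 0.79 (SD, n = 8 pools, limma adjusted p = 4.756e-08), a level 34.7-fold lower in titled GFP- libraries.

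Sox11, a SoxC activator that drives the differentiation of new neurons, had 6.76, 6.62, 7.75 and 7.84 in odor titled GFP- libraries, against 10.43, 9.75, 10.16 and 10.68 in odor titled GFP+ libraries. The vehicle pools had 7.45, 6.94, 7.32 and 7.56 in titled GFP- libraries, against 10.13, 10.40, 10.51 and 10.48 in titled GFP+ libraries. Unlike Sox9, Sox11 was above background in every library of both gates. Its ratio was -3.04 ± 0.41 (SD, n = 8 pools, limma adjusted p = 5.578e-08), or 8.22-fold lower.

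Sox2, a SoxB1 factor that maintains neural and epithelial progenitors, had 5.05, 5.57, 4.79 and 5.46 in odor titled GFP- libraries, against 6.63, 6.39, 6.54 and 7.41 in odor titled GFP+ libraries. In vehicle pools it had 5.24, 4.69, 5.02 and 5.01 in titled GFP- libraries, against 6.35, 6.32, 7.31 and 6.80 in titled GFP+ libraries. The gates did not overlap, but the titled GFP- values stayed near background, where ratios are compressed. The ratio was -1.61 ± 0.47 (SD, n = 8 pools, limma adjusted p = 1.52e-05), or 3.06-fold lower.

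Klf5, which keeps epithelial cells such as those of intestinal crypts dividing, had 5.70, 5.38, 4.21 and 5.33 in odor titled GFP- libraries, against 8.96, 8.91, 8.78 and 9.42 in odor titled GFP+ libraries. In vehicle pools it had 5.48, 6.47, 5.36 and 5.71 in titled GFP- libraries, against 8.45, 8.78, 9.23 and 8.86 in titled GFP+ libraries. The titled GFP- values spread more widely than the titled GFP+ values, and 7 of 8 were above the library's own percentile. The ratio was -3.47 ± 0.71 (SD, n = 8 pools, limma adjusted p = 1.56e-07), or 11.1-fold lower.

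Klf4, a factor of barrier epithelia and of monocytes, had 4.32, 4.80, 4.62 and 4.61 in odor titled GFP- libraries, against 6.73, 7.00, 7.92 and 7.45 in odor titled GFP+ libraries. The vehicle pools had 5.05, 4.27, 5.11 and 4.91 in titled GFP- libraries, against 6.79, 8.15, 6.98 and 6.27 in titled GFP+ libraries. Its titled GFP- mean was below the guide and 4 of 8 of those libraries were above their own percentile. The ratio was -2.45 ± 0.85 (SD, n = 8 pools, limma adjusted p = 2.739e-05), which at the background level is at least 4.71-fold lower.

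Klf6, a widely expressed factor that many cells induce after injury or growth stimuli, had 9.07, 9.04, 8.81 and 9.03 in odor titled GFP- libraries, against 10.17, 10.07, 10.15 and 10.06 in odor titled GFP+ libraries. In vehicle pools it had 9.21, 9.15, 8.66 and 9.01 in titled GFP- libraries, against 10.13, 10.03, 10.00 and 9.92 in titled GFP+ libraries. Klf6 was well above background throughout and had the smallest spread of the 6. Its ratio was -1.07 ± 0.18 (SD, n = 8 pools, limma adjusted p = 5.676e-06), or 2.10-fold lower.

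**Figure D2:**
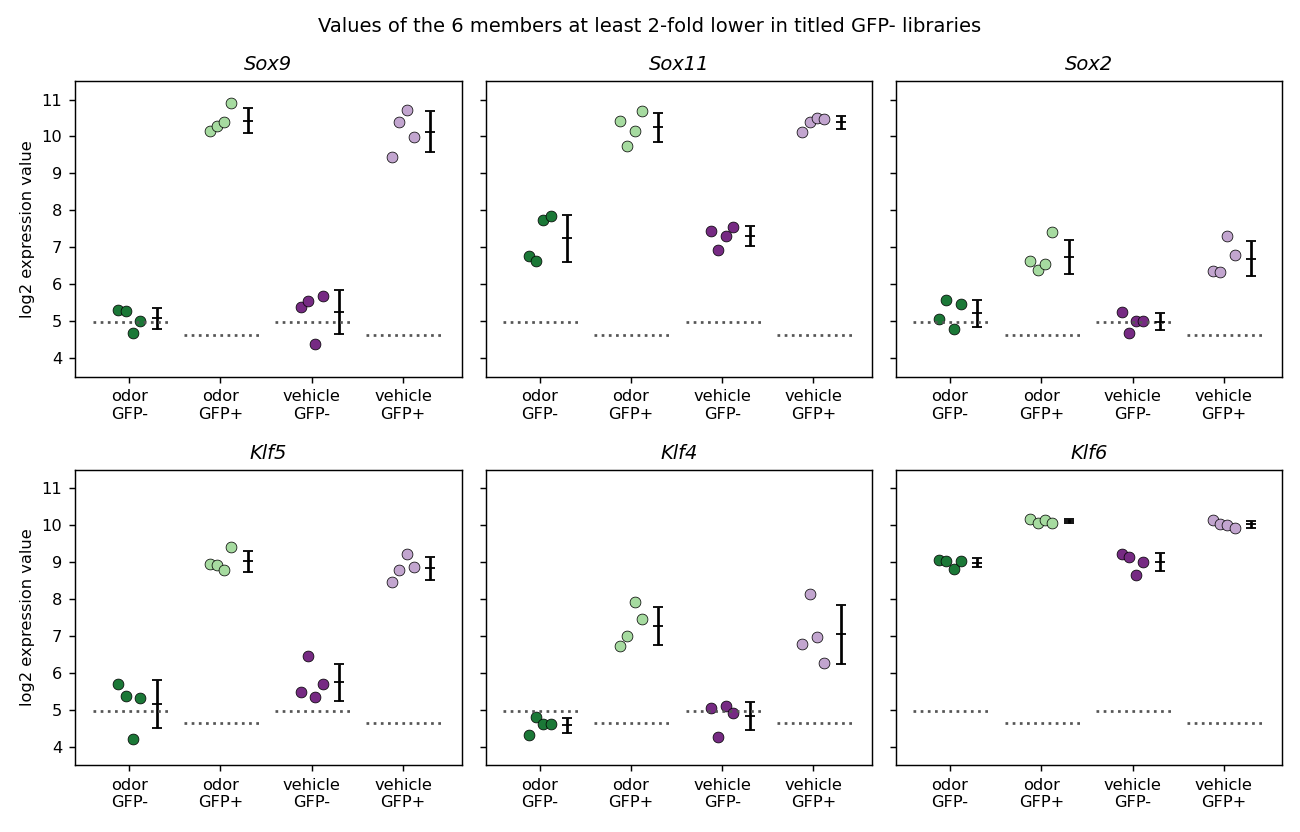
Deposited log2 expression value of Sox9, Sox11, Sox2, Klf5, Klf4 and Klf6 in each of the 16 libraries, by treatment and titled gate. Points are libraries in order of their replicate number, bars are the mean ± SD of 4, and the dotted line is the background guide of the gate (4.97 for titled GFP-, 4.64 for titled GFP+). In each panel the titled GFP- libraries lie below the titled GFP+ libraries in both treatments, and for Sox9, Sox2, Klf5 and Klf4 they lie near the guide.

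RefSeq promoters were taken from 250 bases before to 50 bases after a transcript start on GRCm38.p6. By gene ID they matched 51 of the 74 members with 61 windows, and did so for 4 of the 6 genes above. Sox9 and Klf5 were among the 23 not matched. GC boxes are marked because Klf factors, 2 of them among the 4 genes, are known to bind them. Binding to the windows was not tested. The 4 windows are shown because their genes were at least 2-fold lower in titled GFP- libraries. Each runs 5′ to 3′ on the strand of its gene, and capitals mark GC boxes, GGGCGG or CCGCCC on the other strand. Sox11 lies at chr12:27342669-27342968 on the minus strand, Klf4 at chr4:55532426-55532725 on the minus strand, Sox2 at chr3:34649745-34650044 on the plus strand and Klf6 at chr13:5861239-5861538 on the plus strand.
Sox11: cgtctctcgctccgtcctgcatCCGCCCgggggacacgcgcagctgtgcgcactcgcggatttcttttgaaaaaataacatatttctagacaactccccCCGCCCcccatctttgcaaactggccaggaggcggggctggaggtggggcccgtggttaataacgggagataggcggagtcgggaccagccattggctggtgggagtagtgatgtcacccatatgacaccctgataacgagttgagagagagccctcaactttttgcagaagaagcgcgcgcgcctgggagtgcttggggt
Sox2: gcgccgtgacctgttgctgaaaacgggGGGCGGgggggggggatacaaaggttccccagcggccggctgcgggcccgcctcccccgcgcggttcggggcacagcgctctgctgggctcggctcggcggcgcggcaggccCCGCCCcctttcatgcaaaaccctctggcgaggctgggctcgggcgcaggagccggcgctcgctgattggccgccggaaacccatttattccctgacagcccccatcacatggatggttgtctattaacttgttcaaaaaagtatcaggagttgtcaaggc
Klf4: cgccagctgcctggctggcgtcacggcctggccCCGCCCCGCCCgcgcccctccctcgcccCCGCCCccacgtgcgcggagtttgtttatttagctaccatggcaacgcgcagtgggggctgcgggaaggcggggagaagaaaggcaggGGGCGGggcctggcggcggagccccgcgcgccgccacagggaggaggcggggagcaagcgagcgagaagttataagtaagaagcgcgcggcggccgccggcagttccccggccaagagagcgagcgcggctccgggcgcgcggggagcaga
Klf6: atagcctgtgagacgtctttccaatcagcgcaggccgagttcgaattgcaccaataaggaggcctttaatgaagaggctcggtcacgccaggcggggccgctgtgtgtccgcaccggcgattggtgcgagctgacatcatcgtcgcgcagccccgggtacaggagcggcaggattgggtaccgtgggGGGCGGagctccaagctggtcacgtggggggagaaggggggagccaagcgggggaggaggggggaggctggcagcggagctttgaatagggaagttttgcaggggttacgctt
The windows held 2 GC boxes for Sox11, 2 for Sox2, 4 for Klf4, of which a pair overlap, and 1 for Klf6. Their GC content was 58.7% for Sox11, 66.3% for Sox2, 74.3% for Klf4 and 63.0% for Klf6.

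A GC box in either direction was found in 41 of the 61 member windows (67.2%), against 35.7% of all 32851 promoters of the table. The members' windows were also richer in G and C, with a median of 63.0% against 52.7%, and in CpG, with a median observed over expected of 0.69 against 0.38. The other motifs were searched on both strands as well. The CACC box CCACCC was in 39.3% of member windows against 31.5% of all promoters, the CCAAT box CCAAT in 49.2% against 37.4%, and the TATA box TATAAA in 8.20% against 13.6%. A forkhead site TGTTTAC was in 4.92% of member windows against 3.65% of all promoters, a Sox site AACAAT in 6.56% against 10.7%, and an AP-1 site TGANTCA in 4.92% against 7.81%. No motif contains another. Of the 4 windows printed, 3 held a CCAAT box, and none held a CACC, TATA, AP-1, forkhead or Sox motif as spelled here.

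As deposited, 7 of the 19 Sox genes were lower (36.8%, against 13.2% of all genes) and 2 higher (10.5%, against 14.4%). With libraries centred on their medians 4 were lower and 10 higher, against 9.19% and 73.5% of all genes. With libraries centred on their vomeronasal genes 8 were lower and none higher, against 22.3% and 3.92% of all genes. Subgroups are given in the order of the Sox tree. In SoxB1, the neural progenitor factors, Sox2 fell, Sox3 was below background in both gates, and Sox1 had a ratio of 0.40 that did not pass (limma adjusted p = 0.05347). Sox1 had 0.16 in odor pools and did not pass, against 0.65 in vehicle pools, where it passed (limma adjusted p = 0.0471). The difference between these did not pass (limma adjusted p = 0.8718). The SoxB2 genes Sox14 and Sox21, which counter SoxB1 factors as repressors, were below background in both gates.

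The SoxC genes act together in neurons that leave the cell cycle, yet their values here differed. Sox11 fell as described, Sox4 had a ratio of -0.46 that just missed the threshold (limma adjusted p = 0.05133), and Sox12 had 0.37 (limma adjusted p = 0.0575). Sox4 varied most of these: it had 5.67, 5.09, 4.09 and 5.72 in odor titled GFP- libraries, against 5.69, 5.25, 4.87 and 6.23 in odor titled GFP+ libraries. In vehicle pools it had 6.12, 6.02, 4.37 and 5.51 in titled GFP- libraries, against 6.30, 5.89, 5.41 and 6.64 in titled GFP+ libraries. Its gates overlapped, and 7 of 8 pools were lower.

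All 3 SoxE genes, known for roles in neural crest, glia and Sertoli cells, were lower as deposited. Beside Sox9, Sox8 had a ratio of -0.43 ± 0.30 (SD, n = 8 pools, limma adjusted p = 0.0147) and was above background in every library. Sox10, which glia and their precursors need, had -0.30 ± 0.20 (limma adjusted p = 0.01879), but its means lay below background in both gates. Sox8 had -0.07 with libraries centred on their medians or quantile normalized and no longer passed, and Sox10 had 0.05 with median centring. Of the SoxD genes, which lack an activation domain and work as partners, Sox5 was higher (0.35, limma adjusted p = 0.02791), Sox13 had 0.06 and did not pass, and Sox6 was lower (-0.72 ± 0.15, limma adjusted p = 9.171e-05). Sox6 was lower in 8 of 8 pools although both of its means were below background.

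Sox15, the SoxG gene, studied in muscle repair and placenta, had a ratio of -0.37 (limma adjusted p = 0.04207), with its titled GFP- mean below background and 6 of 8 pools lower. None of its titled GFP- libraries was above its own percentile, and no fold is given, since measured to that percentile the level was not lower. Sox30, a gene of developing sperm, had the largest rise of all members, 0.50 ± 0.44 (limma adjusted p = 0.02665), with values between 4.32 and 5.52 in titled GFP- and between 3.90 and 4.97 in titled GFP+ libraries. Those values lie around the guide, and the gates overlapped. The SoxF genes Sox7, Sox17 and Sox18, which pattern blood and lymph vessels, were below background in both gates. So were all 5 measured endothelial markers, among them Pecam1, Cdh5 and Kdr.

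The 38 Fox genes showed no change of 2-fold or more. As deposited 3 were higher (7.89%, against 14.4% of all genes) and 4 lower (10.5%, against 13.2%). With libraries centred on their medians 29 were higher and none lower, against 73.5% and 9.19% of all genes. With vomeronasal centring none was higher and 8 were lower, against 3.92% and 22.3% of all genes. In both gates 24 of the 38 were below background, beside 8 of the 19 Sox and 4 of the 17 Klf genes. The 24 were Foxa1, Foxa2 and Foxa3 of endoderm, Foxb1 and Foxb2, Foxc1 and Foxc2 of mesenchyme and vessels, Foxd1 to Foxd4, Foxe1 of thyroid and Foxe3 of lens, Foxf1 and Foxf2 of visceral mesenchyme, Foxh1, Foxi3, Foxl1 and Foxl2, Foxn1 of thymic epithelium, Foxp2, Foxq1, Foxr1 and Foxs1. Foxc1 (-0.47, limma adjusted p = 0.01819) and Foxh1, a partner of Smad proteins in nodal signalling (0.40, limma adjusted p = 0.03208), passed the test at such levels, so their ratios are those of dim probe sets.

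The Foxo genes, which insulin and growth factor signalling sends out of the nucleus through Akt, were all above background in both gates. Foxo3 was higher, with 10.12, 10.02, 9.84 and 9.71 in odor titled GFP- libraries, against 9.57, 10.04, 9.30 and 9.54 in odor titled GFP+ libraries. In vehicle pools Foxo3 had 9.99, 9.78, 9.62 and 10.11 in titled GFP- libraries, against 9.64, 9.58, 9.46 and 9.45 in titled GFP+ libraries. The gates overlapped in both treatments and 7 of 8 pools were higher, for a ratio of 0.33 ± 0.24 (SD, n = 8 pools, limma adjusted p = 0.03527). Foxo1 (0.06), Foxo4 (0.04) and Foxo6 (-0.000826) did not pass. Of 10 measured genes of the kinase pathway 2 were higher, Akt2 (0.62) and Igf1r (0.31), and Pik3cb (-0.66) was lower. Of 10 Foxo targets 2 were higher, including the repressor Bcl6 (0.64), and 6 were lower, with a list median of -0.72. Among the 6 were the cell cycle inhibitor Cdkn1b (-4.27), with a titled GFP- mean below background, and the thioredoxin inhibitor Txnip (-1.81). These non-members were picked for mention after their values were seen.

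The Foxn genes split: Foxn2 and Foxn3, related repressors of wide expression, were lower, whereas Foxn4, which directs retinal progenitors to amacrine and horizontal cells, had 0.27 and did not pass. Foxn2 had a ratio of -0.63 ± 0.35 (SD, n = 8 pools, limma adjusted p = 0.003799), and was lower in 8 of 8 pools though the gates overlapped. Foxn3 had -0.61 ± 0.44 (limma adjusted p = 0.005463). No titled GFP- library of Foxn3 was above its own percentile, so its level there is at least 1.1-fold lower. Both missed the threshold with libraries centred on their medians.

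Foxp factors are repressors that pair with each other in neurons, lung and lymphocytes. Foxp1 was far above background in every library and had a ratio of -0.08 that did not pass. Foxp4 had -0.34 (limma adjusted p = 0.03798), but 0.01 with libraries centred on their medians and 0.00 after quantile normalization, so its direction rests on the scale. Foxr2, a gene of testis that becomes active in some brain tumours, was higher (0.34, limma adjusted p = 0.0263) in 8 of 8 pools, with values of 5.09 to 5.89 in titled GFP- and 5.02 to 5.27 in titled GFP+ libraries. The remaining Fox genes above background did not pass: Foxj3 had -0.01, Foxk1 had -0.02 and Foxk2 had 0.15, the Foxk pair being known regulators of glycolysis and autophagy genes. Foxi2, a gene of embryonic ectoderm, had -0.42, with a mean above background in titled GFP+ libraries and below it in titled GFP- libraries.

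As deposited, 5 of the 17 Klf genes were lower (29.4%, against 13.2% of all genes) and none higher (14.4% of all genes). With libraries centred on their medians 4 were lower and 9 higher, against 9.19% and 73.5% of all genes. With vomeronasal centring 6 were lower and none higher, against 22.3% and 3.92% of all genes. Of the 5, Klf2, Klf4, Klf5 and Klf6 are known mainly as activators and Klf3 as a repressor. Klf2, which keeps endothelium and T cells quiescent, had a ratio of -0.62 ± 0.42 (SD, n = 8 pools, limma adjusted p = 0.005893), which at the background level is at least 1.34-fold lower. Its titled GFP- mean was below background, and it missed the threshold with median centring (-0.26) and quantile normalization (-0.33). Klf3, which recruits the corepressor CtBP, had -0.84 ± 0.36 (limma adjusted p = 0.0005964) and was lower in 8 of 8 pools. Klf7, which mice need for olfactory axons to reach the bulb, had values of 14.03 to 14.42 in titled GFP- libraries and 13.84 to 14.31 in titled GFP+ libraries, with a ratio of 0.18 that did not pass.

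The other Klf genes above background did not pass either. Klf9 and Klf10, which hormones and TGF-beta induce, had -0.19 and -0.08. Klf11 had 0.03, Klf12 had 0.08, Klf13 had -0.07, Klf16 had 0.14 and Klf8 had 0.02. Below background in both gates were Klf1, the erythroid factor, with Klf14, Klf15 and Klf17. Klf1 had a ratio of -0.18 while the erythroid genes Alas2 (-1.62) and Slc4a1 (-2.20) fell.

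The smaller calls depended on single pools. Without any 1 of odor pools 1, 3 or 4 or vehicle pools 1, 2 or 4, Foxo3 missed the threshold at ratios of 0.27 to 0.35 (limma adjusted p = 0.0501 to 0.0936). Sox30 missed it with odor pools 1, 3 and 4 and vehicle pools 2, 3 and 4 each left out (0.43 to 0.50), and Foxh1 with pools 1, 2 and 4 of either treatment each left out (0.32 to 0.40). Sox5 and Foxr2 missed it when pool 2 or 3 of either treatment was left out, at 0.29 to 0.35 for Sox5 and 0.28 to 0.34 for Foxr2. With vehicle pool 2 left out none of the 5 rises passed. Among the falls Sox15 missed the threshold without any 1 odor pool or vehicle pool 1 or 4 (-0.41 to -0.30), and Foxp4 without any 1 vehicle pool or odor pools 1 and 3, each in turn (-0.36 to -0.28). Foxc1 missed it without odor pool 2 (-0.43) and Sox10 without vehicle pool 4 (-0.27). The other 12 falls passed whichever pool was left out.

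Relatives and partners of the families were counted too. Of 8 measured Sp factors, Sp6 was higher (0.42) and Sp8 lower (-0.78). Sp6 was below background in both gates, and Sp8 in titled GFP- libraries only. Of 10 corepressors and coactivators of Klf factors, Ctbp2 (-0.58) and Hdac2 (-0.51) were lower. Of 7 measured Pou factors, which pair with Sox factors on DNA, Pou2f3 fell (-2.86), to a titled GFP- mean below background. The other 6 were below background in both gates. All 6 measured Foxm1 targets, genes of mitosis, were lower, with a median of -0.93. For 5 of the 6 the titled GFP- mean was below background, and Cenpf (-0.60) was below it in both gates. Aurkb and Birc5, counted here, are also in the cell cycle list given below. Of 7 genes that act beside Foxj1 in multiciliated cells, Myb, which is also a gene of blood progenitors, was lower (-4.64). Its titled GFP- mean was below background. The genes named in this paragraph were chosen after their values were seen.

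Cell type markers are given beside the members, each list with its summed level, the log2 of the sum of its unlogged values. For immature neurons 5 of 8 genes were lower, among them Gap43 (-2.62) and Gng8 (-4.73) but not Tubb3 (0.00), and the sum was 15.92 to 16.09 in titled GFP- and 16.32 to 16.60 in titled GFP+ libraries. For neurogenic progenitors 4 of 5 measured genes were lower, among them Neurog1 (-1.20) and Kit (-4.41), while Lgr5 (-0.31) did not pass. Neurog1 and Lgr5 were below background in both gates, and Kit in titled GFP- libraries only. The sums of that list were 8.41 to 9.25 in titled GFP- libraries and 9.34 to 10.55 in titled GFP+ libraries. All 6 measured cell cycle genes were lower, with Mki67 at -5.45, Top2a at -0.80 and Cdk1 at -1.08, and a list median of -1.36. Cdk1 was below background in both gates, and Mki67 in titled GFP- libraries only. Summed, the list had 7.49 to 7.94 in titled GFP- and 9.86 to 10.90 in titled GFP+ libraries. These lists are given beside the falls of Sox11 and Sox2.

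Of 8 sustentacular genes 6 were lower, with Cyp2g1 at -1.83, Cyp1a2 at -1.82 and Cyp2a5 at -2.21. Their list summed to 12.31 to 14.81 in titled GFP- and 15.04 to 16.08 in titled GFP+ libraries. Of 6 Bowman's gland genes 3 were lower, with Bpifb4 at -0.36 and Bpifb9b at 0.36 not passing and Aqp5 at -0.59. The others lower were Gpx6 (-1.43) and Ascl3 (-2.91), named after their values were seen. Ascl3 is counted in the microvillar list as well. The gland list had sums of 8.34 to 9.24 in titled GFP- and 9.36 to 10.34 in titled GFP+ libraries. All 7 microvillar genes were lower, including Trpm5 (-4.20), Pou2f3 (-2.86) and Chat (-1.08), and Chat was below background in both gates. In titled GFP- libraries 5 of the 7 had a mean below background. Their sums were 10.19 to 10.84 in titled GFP- and 13.67 to 14.30 in titled GFP+ libraries. These epithelial lists are given beside the falls of Sox9, Sox2 and Klf5. The horizontal basal cell markers Krt5, Krt14 and Trp63 were below background in both gates, as were 5 of the 6 genes of that list.

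Of 10 neutrophil and monocyte genes all were lower, with S100a8 at -9.57, S100a9 at -8.50 and Ngp at -11.29, and the sum was 7.51 to 9.04 in titled GFP- and 17.60 to 18.83 in titled GFP+ libraries. All 5 measured macrophage genes were lower, with sums of 6.93 to 7.90 in titled GFP- and 9.32 to 10.39 in titled GFP+ libraries. All 6 measured lymphocyte genes were lower as well, with sums of 5.98 to 6.81 in titled GFP- and 9.30 to 10.56 in titled GFP+ libraries. The titled GFP- mean was below background, where ratios are compressed, for 6 of the 10 neutrophil and monocyte genes, S100a8 among them. It was so too for 2 of the 5 macrophage genes and all 6 lymphocyte genes. These blood cell lists are given beside the falls of Klf4, Klf6, Klf2 and Klf3. Of 7 respiratory ciliated cell genes 2 were higher and none lower. Of 5 measured ensheathing glia genes only Apoe (-2.76), which macrophages also make, was lower. S100b was below background in both gates, as Sox10 was. The sum was 9.46 to 12.12 in titled GFP- and 12.49 to 13.87 in titled GFP+ libraries. That sum is mostly Apoe, with means of 10.48 in titled GFP- and 13.24 in titled GFP+ libraries. The next brightest gene, Fabp7, had 5.22 and 5.13. Among 5 stromal and 5 pericyte genes, Dcn (-0.99), Acta2 (-0.79) and Rgs5 (-5.09) were lower. Of these, Dcn and Rgs5 were chosen after their values were seen, and Acta2 was below background in both gates. Col1a1 (-0.14), Col1a2 (0.35), Col3a1 (0.26), Myh11 (0.01) and Pdgfrb (0.39) did not pass. The mature neuron list had 2 of 10 genes higher and none lower, with a sum of 21.07 to 21.23 in titled GFP- and 21.04 to 21.17 in titled GFP+ libraries. The part of each of these cell types in the members' ratios was not tested.

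**Figure D3:**
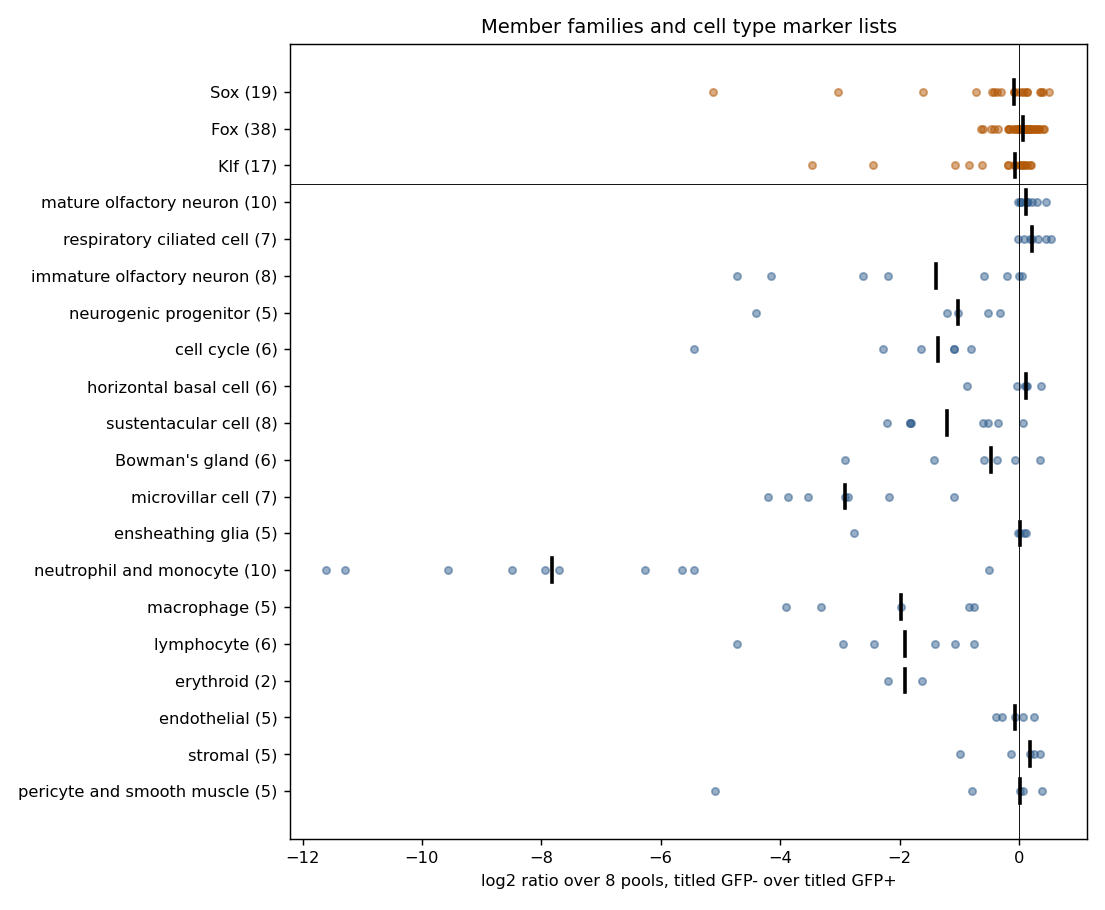
Log2 gate ratio over 8 pools, titled GFP- over titled GFP+, of the genes of the 3 families (top) and of the cell type marker lists (below), with the number of measured genes in brackets. Points are genes and bars are list medians as deposited; the Sox and Klf medians (-0.08 and -0.07) are 0.28 with libraries centred on their medians, and the Fox median (0.07) is -0.16 with vomeronasal centring. The bulk of each family sits near 0 with a tail of falls, while the neutrophil and monocyte list has a median of -7.82.

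The gate ratio was also read in each treatment. In odor pools 10 members were lower and 1 was higher, against 10.2% and 7.82% of all genes. In vehicle pools 13 members were lower and 2 were higher, against 9.95% and 6.23% of all genes. The 6 members with large falls passed in both. Sox9 had -5.35 in odor pools and -4.88 in vehicle pools, and Sox11 had -3.01 in odor pools and -3.06 in vehicle pools. Sox2 had -1.52 in odor pools and -1.70 in vehicle pools, and Klf6 had -1.13 in odor pools and -1.01 in vehicle pools. Klf5 had -3.86 in odor pools and -3.07 in vehicle pools, and Klf4 had -2.68 in odor pools and -2.21 in vehicle pools. The higher member of odor pools was Foxr2 (0.45, limma adjusted p = 0.04859). Those of vehicle pools were Sox1 and Foxf1 (0.60, limma adjusted p = 0.0376), the second of which was below background in both gates. Without vehicle pool 3, 8 members were lower in vehicle pools, and leaving out each pool in turn gave 0 to 2 rises there, with none without odor pool 1 or vehicle pool 2 or 4. Foxr2 did not pass in odor pools without odor pool 4 or vehicle pool 2 or 3.

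Whether bourgeonal shifted a member between the gates was tested as the gate ratio in odor pools minus that in vehicle pools. No member passed, and 0% of all genes did (limma). At an unadjusted p under 0.05 there were 2 members (2.70%), against 1109 of all genes (5.69%), and the smallest adjusted p of a member was 0.859. The members with the smallest p were Foxi3 (-0.57, SE 0.24), Foxf1 (-0.55, SE 0.24) and Klf5 (-0.79, SE 0.37). The first pair were below background. For Klf5 the sign means a lower gate ratio in odor pools, with the pools overlapping between the treatments.

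**Figure D4:**
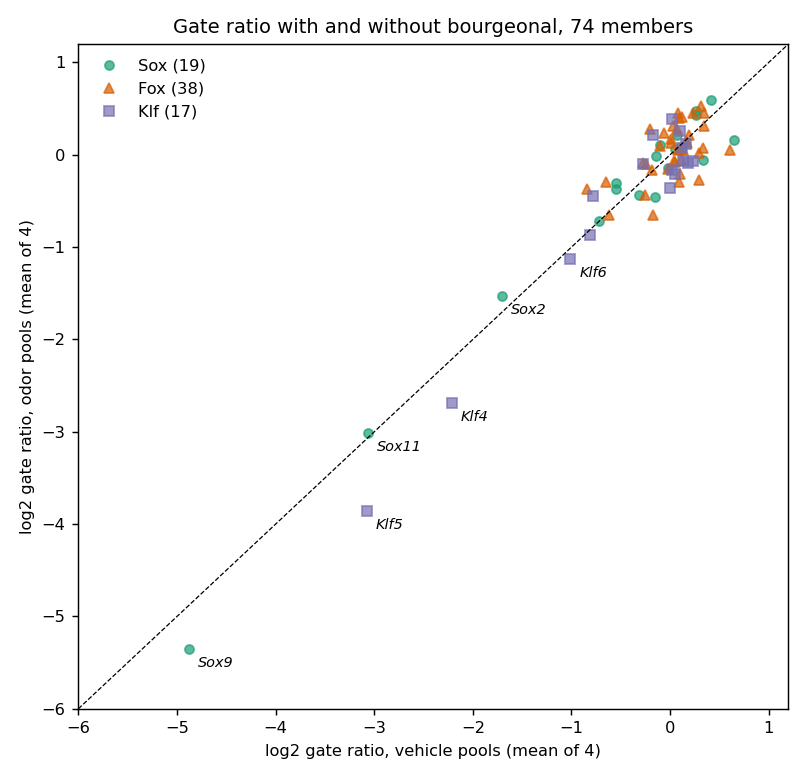
Log2 gate ratio, titled GFP- over titled GFP+, of each of the 74 members in odor pools (vertical axis) and in vehicle pools (horizontal axis), each a mean of 4 pools; the dashed line marks equal ratios. The 6 members with large falls lie at the lower left near the line, with Klf5 at -3.86 in odor and -3.07 in vehicle pools the farthest from it.

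Odor was compared with vehicle within each gate as well. In titled GFP- libraries no member passed and 0% of all genes did, and at an unadjusted p under 0.05 there were 6 members (8.11%), against 869 of all genes (4.46%). In titled GFP+ libraries no member passed either, against 0.0103% of all genes, which is 2 genes. At an unadjusted p under 0.05 there were 4 members (5.41%) in that gate, against 827 of all genes (4.24%). The smallest adjusted p values of members were 0.996 in titled GFP- and 0.999 in titled GFP+ libraries.

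Sox6 was among the 3 members with the smallest p in both gates, and it did not pass in either. In titled GFP- libraries it had 3.48, 3.24, 3.38 and 3.24 with odor, against 2.79, 2.89, 2.57 and 2.99 with vehicle (difference 0.52, SE 0.15). In titled GFP+ libraries it had 4.20, 3.84, 4.15 and 4.03 with odor, against 3.47, 3.48, 3.59 and 3.57 with vehicle (difference 0.53, SE 0.14). The treatments did not overlap in either gate, but Sox6 was chosen by its p, so this follows in part from that choice. The share of all genes without such overlap was not counted. Every Sox6 value lay below the guide, and the gates of a pool share their mice, as far as the number of mice shows.

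Of the 6 members at an unadjusted p under 0.05 in titled GFP- libraries, Klf16 and Sox1 were above background in both gates. Klf16, a repressor of the Sp and Klf family, had 9.36, 9.27, 9.02 and 8.90 with odor, against 8.48, 8.60, 8.72 and 8.61 with vehicle in that gate (difference 0.53, SE 0.15). In titled GFP+ libraries it had 9.62, 8.37, 9.12 and 8.97 with odor, against 8.40, 8.51, 8.76 and 8.09 with vehicle (difference 0.58, SE 0.25). The treatments overlapped in titled GFP+ libraries only, and Klf16, like Sox6, was chosen by its p. Sox1 had a difference of the opposite sign: it had 7.23, 6.96, 7.27 and 7.51 with odor, against 7.79, 8.19, 7.40 and 7.77 with vehicle in titled GFP- libraries (difference -0.54, SE 0.19), where the treatments overlapped. In titled GFP+ libraries its difference was -0.05 (SE 0.18). The other two of the 6 beside Sox6 and Klf15 were Klf2 (0.54), above background in titled GFP+ libraries only, and Sox10 (-0.33), below it in both gates. The remaining members with the smallest p were Klf15 (0.54) in titled GFP- libraries, and Foxi2 (0.61) and Foxf1 (0.49) in titled GFP+ libraries. Klf15 and Foxf1 were below background in both gates.

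**Figure D5:**
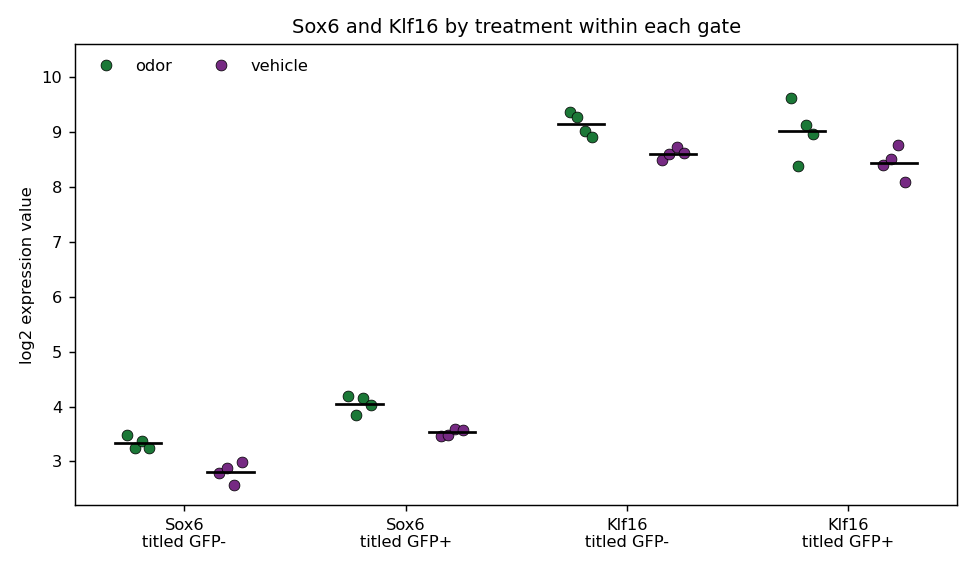
Deposited log2 expression value of Sox6 and Klf16 in odor and vehicle libraries within each titled gate. Points are the 4 libraries of a group and lines their means. These genes were chosen by their unadjusted p, so treatments that lie apart follow in part from that choice. The odor libraries overlap the vehicle libraries for Klf16 in titled GFP+ libraries and lie above them in the other comparisons. No difference passed after adjustment, and Sox6 is below the background guide throughout.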

How the data were processed

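Expression was measured on Clariom S arrays in 16 libraries of sorted olfactory mucosa cells. The authors deposited log2 expression values. The submitters' processing notes name Affymetrix Expression Console as the tool, while version, summarisation and build were not given in the sources used here. Of 28846 probe sets, 6546 with neg or pos in their ID and 94 spike-in or background controls were left out. The annotation gave 19572 of the remaining probe sets exactly 1 gene symbol, gave 2634 none, and gave 0 of them more. For a gene with several probe sets the brightest was kept, which set 67 aside and left 19505 genes. All 74 member IDs were in the reference gene table (GRCm38.p6). Precision is limited by the number of arrays, and values near background compress ratios. A fall to a titled GFP- mean below the background guide has a fold only as a bound, "at least N-fold", where that bound is above 1, measured to the higher of the guide and the probe set's own value in each library.

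Linear models were fitted by lmFit and eBayes of limma 3.58.1 under R 4.3.3, two-sided, with Benjamini-Hochberg adjustment over all genes and a threshold of 0.05. The gate ratios and their difference, odor minus vehicle, came from 1 fit of the 16 libraries blocked by pool. Odor against vehicle within a gate used 8 libraries without a block. The pairing of gates rests on the number of mice. After group means were removed, the gates of odor pools correlated at 0.135 to 0.287 and those of vehicle pools at 0.098 to 0.201. For equal replicate numbers of the treatments the correlation was 0.088 to 0.161 in titled GFP- and 0.157 to 0.210 in titled GFP+ libraries.

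The members and lists were chosen with earlier results of these data known. By the rule for named genes, every library is given for members past the threshold and at least 2-fold changed. The other members that passed or were above background are given by their ratio, and those below background by name. For each odor comparison the 3 members with the smallest p are given. Library values of Sox4, Foxo3, Sox6, Klf16 and Sox1 are printed outside that rule. Non-members were S100a5, Omp and genes among the first 3 measured of the marker lists, not all of which are named. Other non-members are said to be chosen after their values were seen. Alternatives were no block or a replicate block, centring on the median, quantile normalization, dim genes left out, limma-trend, all probe sets and leaving out each pool. Centring on vomeronasal receptor genes was added after the values were seen.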

Additional observations from a re-analysis of the deposited data

Results flagged for a closer look

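Single libraries were compared with the other 3 of their group for the 38 members above background in at least 1 gate. In 10 of 152 groups the highest or lowest library lay apart by Dixon's criterion, and chance gives about 1 in 20 groups. In 4 of the 10 the library apart was the vehicle titled GFP- library of pool 3, each time as the lowest. There Foxk1 had 11.19 against 11.72 to 11.82 in the others, Foxn3 had 3.78 against 4.51 to 4.52, Foxp4 had 4.78 against 5.45 to 5.57 and Klf7 had 14.03 against 14.34 to 14.40. Foxo4 was low in the vehicle titled GFP- library of pool 4, with 6.11 against 6.89 to 6.96.

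Foxp4 was also low in the vehicle titled GFP+ library of pool 3, with 5.29 against 5.64 to 5.71. Klf6 was lowest in the odor titled GFP- library of pool 3, with 8.81 against 9.03 to 9.07, and Foxp1 in the odor titled GFP+ library of pool 3, with 14.49 against 14.86 to 14.94. Klf2 was highest in the odor titled GFP+ library of pool 3, with 5.88 against 5.34 to 5.41, and in the vehicle titled GFP+ library of pool 2, with 5.79 against 5.08 to 5.17. Of these members Klf6, Klf2 and Foxn3 kept their call over all pools whichever pool was left out, and Foxp4 lost that call without 6 of the 8 pools in turn.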

How the results depend on the processing

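Of the 21 members past the threshold over all pools, 8 kept direction and call in each of 15 alternatives in which they were tested: Sox9 (-5.36 to -4.76), Klf5 (-3.71 to -3.12), Sox11 (-3.28 to -2.68), Klf4 (-2.69 to -2.10), Sox2 (-1.85 to -1.26), Klf6 (-1.31 to -0.72), Klf3 (-1.08 to -0.48) and Sox6 (-0.96 to -0.36, not tested with dim genes left out). The other 13 lost the call in some, Foxh1 in 8 of 14 and the other rises in 6 or 7 of 15. Leaving out 1 pool gave 0 to 4 rises and 13 to 16 falls over all pools, among them 0 to 3 of the 5 rises and 13 to 15 of the 16 falls, with no rise left without vehicle pool 2. With each library centred on its median, 48 members were higher and 8 lower over all pools, 35 and 8 in vehicle pools (53.8% and 7.80% of all genes), and 27 were higher in odor pools (54.5% of all genes); 85.7% of the calls over all pools were then rises, against 23.8% as deposited, 33.3% after quantile normalization and 0% with vomeronasal centring. With vomeronasal centring 0 were higher over all, vehicle or odor pools, and 22 were lower over all pools. The shifts under median and vomeronasal centring follow from the centring, which adds a constant to every ratio. Quantile normalization does not add a constant: Foxr2 went from 0.34 as deposited to 0.66, and Foxh1 from 0.40 to 0.31. Foxp4 turned to 0.008245 with median centring and 0.001045 with quantile normalization, and Sox10 to 0.05022 with median centring. In vehicle pools, leaving out dim genes left 1 rise, leaving out 1 pool 0 to 2 rises and 8 to 13 falls, with 8 without vehicle pool 3. In odor pools 4 rose with quantile normalization, 2 without dim genes, and 0 with limma-trend or all probe sets; leaving out 1 pool gave 0 to 1 rises and 8 to 10 falls. The cause of these moves was not tested. Without the replicate block 5 members were higher and 14 lower over all pools, of which 18 were among the 21. With the replicate number as a block, odor against vehicle gave 0 members in each gate; that block changed no call, and the odor comparisons and the difference gave 0 members in each alternative run.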
